A study of Rattus norvegicus with 6 samples.

Results

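Classic markers of tubular injury and of the acute-phase response were followed in the renal cortex of rats given N-nitrosodimethylamine (NDMA), a small nitrosamine that cytochrome P450 enzymes turn into a DNA-methylating species. The 10 genes were chosen by name: Havcr1, Lcn2, Clu, Spp1, Timp1, the fibrinogen genes Fga, Fgb and Fgg, A2m and Tff3. Every array probe designed on a RefSeq transcript of these genes was taken, which gave 16 of the array's 61657 probes and 10 of its 15284 genes with a RefSeq name. Male Sprague-Dawley rats of the Crl:CD(SD) stock, bought at 5 weeks of age, received either water (control, n = 3) or NDMA at 4 mg/kg per day (n = 3), in both cases for 4 weeks. Total RNA of each rat's renal cortex was labelled with Cy3 and hybridised to an array of its own, so that each group held 3 animals and no pools. The route of dosing, the time from the last dose to sampling and any histology were not given in the sources used here.

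These genes are read in kidney studies because tubule cells that are damaged change their programme. Havcr1 encodes KIM-1, a membrane protein that lets surviving tubule cells take up dying ones, and Lcn2 encodes the iron-siderophore carrier NGAL; both are used as urinary markers of tubular injury. Clu (clusterin, a secreted chaperone), Spp1 (osteopontin, a matrix glycoprotein that binds integrins and CD44), Timp1 (an inhibitor of matrix metalloproteinases) and Tff3 (a trefoil peptide made by epithelia) are further injury readouts, of which Tff3 is known to fall in urine after tubular damage. The fibrinogen chains and A2m, a broad protease inhibitor that is a strong acute-phase protein in the rat, are made chiefly by the liver, where IL-6 raises them through STAT3.

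The promoters of the fibrinogen genes and of Lcn2 are shown because these genes are textbook acute-phase genes and because Fgg, Fga and Fgb followed one another directly in the RefSeq gene table of chromosome 2, while their probes did not move alike in the rats. Each run holds the 250 bases before the annotated start, 5′ to 3′ on the gene's own strand, from RefSeq on rat assembly GRCr8. Capitals mark CTGGGAA, the core of the IL-6 response element, and TTCNNNGAA, the palindrome bound by STAT proteins, each searched on both strands.
Fgb promoter, chr2:170700876-170701125, minus strand: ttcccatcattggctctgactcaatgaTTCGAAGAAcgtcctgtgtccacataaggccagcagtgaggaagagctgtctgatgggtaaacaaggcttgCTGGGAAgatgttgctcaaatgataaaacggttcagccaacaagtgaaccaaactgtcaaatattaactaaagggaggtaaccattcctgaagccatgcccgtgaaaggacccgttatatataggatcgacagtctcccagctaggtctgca
Fga promoter, chr2:170671919-170672168, plus strand: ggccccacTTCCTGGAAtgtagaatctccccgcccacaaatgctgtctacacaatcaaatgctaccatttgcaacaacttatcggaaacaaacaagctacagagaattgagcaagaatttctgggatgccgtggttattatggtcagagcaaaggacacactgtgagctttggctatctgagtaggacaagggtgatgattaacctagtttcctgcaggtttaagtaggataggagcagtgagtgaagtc
Fgg promoter, chr2:170652833-170653082, plus strand: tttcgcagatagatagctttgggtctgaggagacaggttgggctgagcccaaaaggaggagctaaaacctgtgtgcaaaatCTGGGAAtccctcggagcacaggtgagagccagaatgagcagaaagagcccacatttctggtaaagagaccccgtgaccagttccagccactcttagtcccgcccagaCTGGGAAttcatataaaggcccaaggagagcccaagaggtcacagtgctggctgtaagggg
Lcn2 promoter, chr3:36081781-36082030, minus strand: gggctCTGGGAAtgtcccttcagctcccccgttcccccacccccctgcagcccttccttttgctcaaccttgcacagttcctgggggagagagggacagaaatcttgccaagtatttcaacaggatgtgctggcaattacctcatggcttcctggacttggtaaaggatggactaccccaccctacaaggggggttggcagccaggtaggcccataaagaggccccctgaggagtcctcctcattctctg
CTGGGAA occurred in 9.56% of all 33465 RefSeq windows of this length and TTCNNNGAA in 7.67%. Windows were held for 8 of the 10 genes, with 9 windows because Fga had 2 annotated starts. Fgb held both motifs, with TTCGAAGAA at bases -223 to -215 and CTGGGAA at -152 to -146 from the start. Fgg held CTGGGAA at -169 to -163 and again at -61 to -55. Fga held TTCCTGGAA at -242 to -234 in the window of 1 start and neither motif in that of the other. Lcn2 held CTGGGAA at -245 to -239, and Tff3 held TTCAGAGAA at -70 to -62. The windows of Havcr1, Spp1 and Timp1 held neither. These are letter matches and no evidence of binding; the 2 motifs do not overlap in any of the runs shown.

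The level of a probe is given as its log2 normalised signal, the log2 of the background-subtracted intensity minus the array's 75th percentile, so that 0 is the intensity below which 75% of an array's probes lie. Levels are compared between rats for 1 probe and never between probes. Between 43016 and 46248 probes per array were well above background. The 3 control arrays and that of NDMA rat 1 lay on slide 1, and those of NDMA rats 2 and 3 on slide 2, so the slide is partly tied to the group. Tubule and podocyte markers were read beside the label renal cortex. Tested were 12 of 12 proximal tubule genes, 8 of 8 collecting duct genes and 6 of 6 podocyte genes. Of 8 loop of Henle and distal tubule genes 6 had a probe and 5 were tested. The markers were not compared with other parts of the kidney, so they do not check the label itself. In bulk tissue, fewer cells of a type and less RNA per cell cannot be told apart.

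Timp1 was the only one of the 10 genes that passed the test between NDMA and control. A probe was tested if it was well above background in all 3 rats of at least 1 group, which 14 of the 16 probes were, covering all 10 genes. By limma with Benjamini-Hochberg adjustment over 43118 probes, 1 of these 14 was higher in NDMA and 0 were lower at an adjusted p under 0.05, where 2.99% of all tested probes were called, 2.5% higher and 0.485% lower. Before adjustment 4 of the 14 had a p under 0.05. The difference was above 0 on 10 of the 14 probes. All 3 NDMA rats lay above all 3 control rats on 2 probes, those of Timp1 and Spp1, and the groups did not overlap on 26.9% of all tested probes, or for 29.3% of all genes by their brightest probe; the share among the members is below this background.

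On many of these probes the NDMA rats were unequal. The SD over the 3 NDMA rats had a median of 0.63 over the 14 probes and of 0.15 over all tested probes. It was at least 1 on 6 of the 14 (42.9%) against 0.816% of all. These 6 were the probes of Havcr1 and Spp1, both of Fgb and both of Fgg, so they are not 6 separate genes. The members were chosen with earlier results of these data known, so the contrasts with all probes are a description only. The controls were also more spread on these probes, with a median SD of 0.39 against 0.12. NDMA rat 2 was the highest of all 6 rats on 8 of the 14 probes (57.1%), against 20.1% of all tested probes, and on every tested probe of 7 genes: Havcr1, Lcn2, Spp1, Timp1, Fga, Fgb and A2m. It lay at least 1 log2 unit above the mean of the other NDMA rats on 5 probes, those of Havcr1, Lcn2, Spp1 and both of Fgb, where 0.782% of all tested probes did so. NDMA rat 1 lay that far above the others on 2 probes, both of Fgg, with 0.937% of all probes. NDMA rat 3 did so on 0 of the 14, with 0.524% of all probes.

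**Figure D1:**
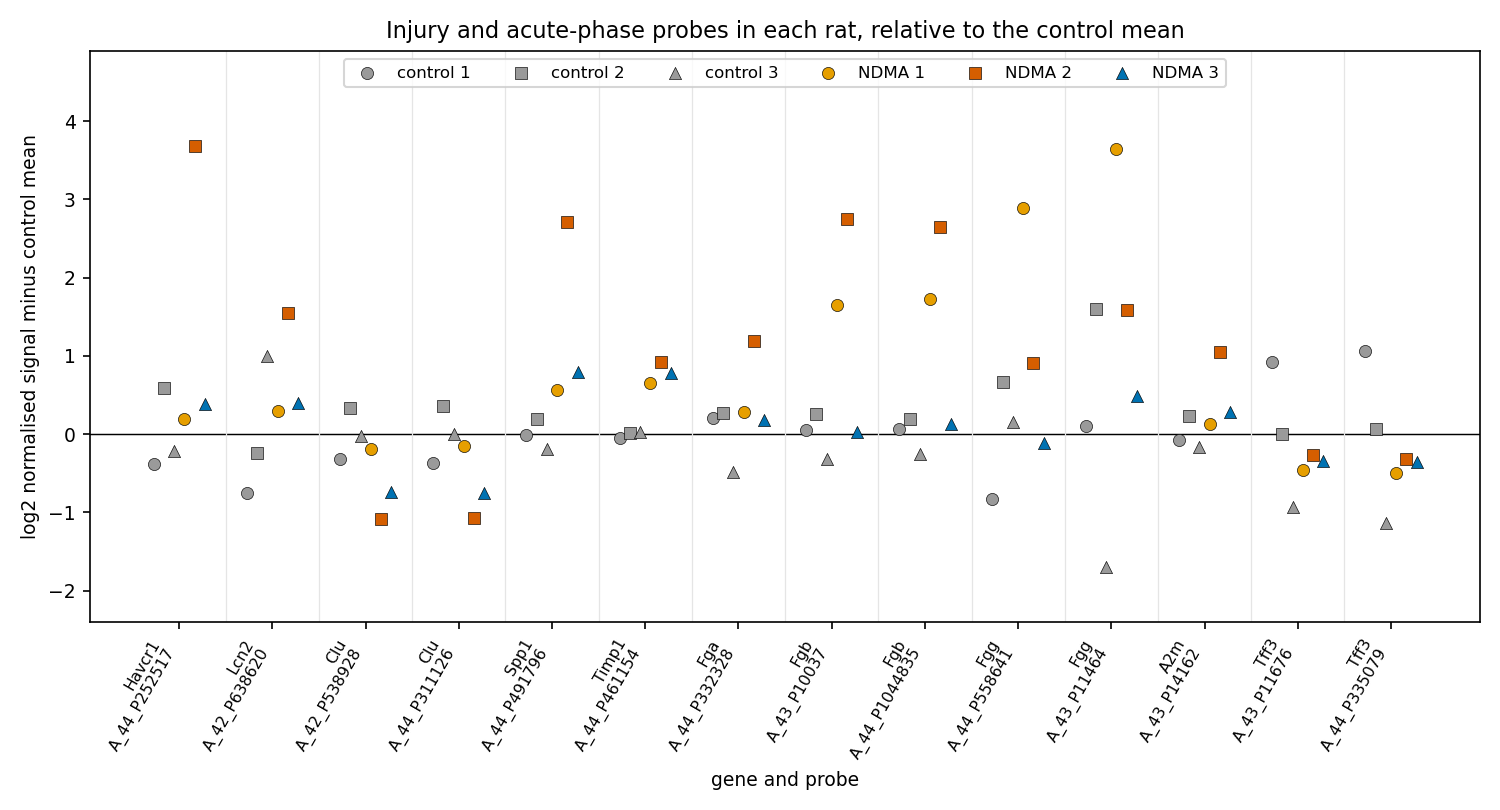
Log2 normalised signal of each tested probe in each rat, minus the mean of the 3 controls, with genes and probes along the horizontal axis; grey symbols are control rats and coloured symbols NDMA rats, 1 point per rat. The square of NDMA rat 2 stands 3.68 above the control mean for Havcr1 and 2.72 for Spp1, the circle of NDMA rat 1 is the highest point on both Fgg probes, and the Timp1 points of the NDMA rats lie close together.

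Havcr1 was high in NDMA rat 2 alone. Its level was -4.91, -3.94 and -4.74 in the control rats and -4.33, -0.85 and -4.14 in NDMA rats 1, 2 and 3. NDMA rats 1 and 3 lay within the control range, and NDMA rat 2 stood at 12.8 times the control mean and 3.39 log2 units above the mean of the other NDMA rats. The group difference, 1.42 ± 0.93 (moderated SE, n = 3 per group), was smaller than the spread among the NDMA rats (SD 1.96, against 0.52 in controls), with an adjusted p of 0.450 by limma. Its 95% interval ran from -0.81 to 3.66. Without NDMA rat 2 it was 0.29 ± 0.31 (adjusted p = 0.719), and NDMA rats 2 and 3, whose arrays shared a slide, differed by 3.29. With normexp background correction, which shrinks dim probes, the difference was 0.70.

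Lcn2 was also highest in NDMA rat 2, but its groups overlapped widely. The controls read -2.98, -2.46 and -1.22, and the NDMA rats -1.92, -0.67 and -1.82. Control rat 3 was therefore higher than NDMA rats 1 and 3, and only NDMA rat 2 lay above all controls. The difference was 0.75 ± 0.52 (limma adjusted p = 0.479). It was 0.35 without NDMA rat 2, 0.37 without control rat 1 and 1.25 without control rat 3 (adjusted p = 0.234). Neutrophils carry Lcn2 protein in their granules and transcribe it as they mature. Of 10 neutrophil markers 4 were tested and 0 passed, and their summed level, in multiples of the 75th percentile, was 0.463 to 1.34 in controls and 0.592 to 0.819 in NDMA. Elane, Ltf, Mmp8 and Ngp were not well above background in any rat. Cxcr2, also not tested, was well above background on its brighter probe in 2 rats of each group.

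Spp1 was higher in every NDMA rat than in every control, and by far the most in NDMA rat 2. It read 3.24, 3.44 and 3.06 in the controls and 3.81, 5.96 and 4.04 in the NDMA rats. The lowest NDMA rat lay 0.37 above the highest control, and the SD was 0.19 in controls and 1.18 in NDMA. NDMA rats 1, 2 and 3 were 1.47, 6.58 and 1.73 times the control mean. The group difference, 1.36 ± 0.55 or 2.56-fold, did not pass the test (limma adjusted p = 0.267). Without NDMA rat 2 it was 0.67 ± 0.15, with a smaller error and still no call (adjusted p = 0.139).

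Clu and Tff3 were the members with lower means in NDMA, and neither passed the test. The first Clu probe read 3.92, 4.58 and 4.21 in controls and 4.05, 3.15 and 3.49 in NDMA, and the second 3.80, 4.53 and 4.17 against 4.02, 3.10 and 3.41. Both Clu probes placed NDMA rats 2 and 3 below every control and NDMA rat 1 among the controls. The differences were -0.67 ± 0.26 (limma adjusted p = 0.255) and -0.66 ± 0.28 (adjusted p = 0.283). NDMA rat 2, which was the highest for Havcr1 and Spp1, was the lowest of the 6 rats for Clu.

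Tff3 showed the opposite kind of spread, wide among controls and narrow among NDMA rats. Its first probe read 5.28, 4.35 and 3.43 in controls (SD 0.92) and 3.89, 4.08 and 4.01 in NDMA (SD 0.09). The second probe kept the same order of rats, at 4.77, 3.78 and 2.57 against 3.21, 3.40 and 3.35. The NDMA rats lay inside the control range on both. The differences were -0.36 ± 0.43 (limma adjusted p = 0.685) and -0.39 ± 0.51 (adjusted p = 0.714), and they turned to 0.11 and 0.15 without control rat 1.

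Timp1 rose in NDMA and was uniform within each group. The controls read 1.25, 1.31 and 1.33 (SD 0.04) and the NDMA rats 1.95, 2.21 and 2.07 (SD 0.13). Every NDMA rat lay above every control by at least 0.62, at 1.58, 1.89 and 1.72 times the control mean. The difference was 0.78 ± 0.09, or 1.72-fold, with a limma adjusted p of 0.0131. It ranged from 0.66 to 0.85 over 18 other settings and samples, with an adjusted p from 0.00247 to 0.168. The call was lost with slide as a block (0.66, adjusted p = 0.139), on slide 1 alone, where NDMA rat 1 faced the controls (0.66, adjusted p = 0.168), with the replicate number as a block (0.78, adjusted p = 0.0540), without control rat 1 (0.76, adjusted p = 0.0596) and without NDMA rat 3 (0.79, adjusted p = 0.0528).

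Summed levels of macrophage and of T cell markers were higher in every NDMA rat than in every control, as Timp1 and Spp1 were. Those of the neutrophil markers given above overlapped between the groups. The macrophage sums were 86.7, 93.9 and 101 in NDMA rats 1, 2 and 3, and the T cell sums 4.86, 5.57 and 5.67. By single marker, 4 of the 11 tested macrophage genes and 1 of the 8 T cell genes were highest in NDMA rat 2. Of 11 tested macrophage markers of 12 listed, 9 rose, with a median difference of 1.13; their summed level was 38.1 to 46.4 in controls and 86.7 to 101 in NDMA. Of 8 T cell markers 6 rose, with summed levels of 1.53 to 2.10 and 4.86 to 5.67. Among all genes tested by their brightest probe, 3.56% were called higher and 0.485% lower. Of 7 tested fibroblast markers of 9 listed 0 passed, at 36.4 to 43.7 and 39.5 to 47.6. Cd163 was the macrophage marker without a tested probe, and Lum and Postn the fibroblast ones. Timp1 and Spp1 are made by macrophages as well as by tubule and stromal cells, and the part of these cells in their values was not tested. Of 12 proximal tubule markers 1, Lrp2, was lower by the test, and the median difference was -0.32. Of 8 collecting duct markers 0 passed, with a median of -0.26. The mean was lower in NDMA for every marker of both lists, and 5023 of all 12175 genes tested by their brightest probe had a difference above 0.

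The 3 fibrinogen genes encode the chains that are joined into 1 secreted protein, yet they were not highest in the same rat. Fga read 0.91, 0.97 and 0.23 in controls and 0.99, 1.90 and 0.89 in NDMA. NDMA rat 2 was the highest, while NDMA rats 1 and 3 read close to control rats 1 and 2. The difference was 0.56 ± 0.32 (limma adjusted p = 0.403), and 0.24 without NDMA rat 2.

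Fgb was high in NDMA rats 1 and 2 and at control level in NDMA rat 3. The first Fgb probe read -0.63, -0.42 and -1.00 in controls and 0.96, 2.07 and -0.65 in NDMA. The second read -1.62, -1.49 and -1.93 against 0.04, 0.96 and -1.56. Both probes placed NDMA rats 1 and 2 above every control and NDMA rat 3 within the control range; on the first probe the NDMA rats were 3.13, 6.72 and 1.02 times the control mean. The differences were 1.47 ± 0.64 (limma adjusted p = 0.290) and 1.50 ± 0.60 (adjusted p = 0.258). Without NDMA rat 3 they were 2.20 (adjusted p = 0.0711) and 2.19 (adjusted p = 0.0501), and without NDMA rat 2 they were 0.84 and 0.93.

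Fgg was highest in NDMA rat 1, and its probes were dim. The first Fgg probe read -5.83, -4.34 and -4.85 in controls and -2.12, -4.09 and -5.11 in NDMA. The second, which was well above background in only 2 of the 3 controls, read -5.11, -3.62 and -6.91 against -1.57, -3.62 and -4.73. On both probes NDMA rat 1 stood above all other rats and NDMA rat 3 was within the control range. The differences were 1.23 ± 0.78 (limma adjusted p = 0.438) and 1.91 ± 1.05 (adjusted p = 0.382), and they were 0.40 and 1.04 without NDMA rat 1. With normexp correction they were 0.46 and 0.64. On slide 1 alone, where NDMA rat 1 was the only NDMA rat, they were 2.89 and 3.65.

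A2m had the smallest difference among the 4 acute-phase genes. Its tested probe read -3.54, -3.23 and -3.62 in controls and -3.33, -2.41 and -3.18 in NDMA. Only NDMA rats 2 and 3 lay above all controls, NDMA rat 3 by a margin smaller than the control range of 0.39. The difference was 0.49 ± 0.25 (limma adjusted p = 0.354), and 0.21 without NDMA rat 2. A second A2m probe, well above background in 2 rats of each group and so not tested, read -5.59, -5.47 and -5.95 against -6.34, -4.08 and -5.56. The third was well above background in NDMA rat 2 alone, where it read -4.50, and the group fold was at least 1.15-fold. NDMA rat 2 was the highest rat on all 3 probes.

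Transcripts of plasma proteins that the liver makes varied between rats of both groups, and they did not share a single order of rats. Of 14 hepatocyte markers 10 were tested and 0 passed (0 also before adjustment), and 7 of the 10 were highest in NDMA rat 1, as were 4604 of the 43100 tested probes with a value in every rat. Their summed level was 5.84 to 15.2 in controls, and 27.0, 8.89 and 10.8 in NDMA rats 1, 2 and 3. Cps1 and Tat, enzymes of hepatocytes, were not well above background in any rat, and F9 was so in NDMA rat 1 alone. Apoa2, also not tested, was well above background in 2 controls and 1 NDMA rat. Albumin (Alb) read -0.15, 0.74 and -5.61 in controls and 3.01, -4.08 and -1.03 in NDMA, so that NDMA rat 2 had less Alb signal than control rats 1 and 2. Ttr followed the same order, at -0.95, 0.38 and -4.84 against 2.45, -4.52 and -1.54. Haptoglobin (Hp), an acute-phase protein, read -2.13, -1.26 and -3.30 against 0.76, -2.36 and -1.94.

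Serpina3n, an acute-phase protease inhibitor, had the order of Fgb in part. It read -2.94, -2.17 and -4.38 in controls and 0.66, -0.01 and -2.83 in NDMA. NDMA rats 1 and 2 lay above all controls and NDMA rat 3 within them, as for Fgb, with NDMA rat 1 the highest (2.43 ± 0.99, limma adjusted p = 0.266). Of the 10 hepatocyte markers 9 lay above the control mean in NDMA rat 1, all but Cyp2c11. In NDMA rat 2, 3 lay above it, Fetub, Itih1 and Hrg, and 7 below.

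Set beside these, Fgg was highest in NDMA rat 1, where Alb, Ttr and Hp were highest too. Fga, Fgb and A2m were highest in NDMA rat 2, where Alb and Ttr were lower than in NDMA rats 1 and 3. The acute-phase genes Crp, Orm1 and Fgl1 were well above background in NDMA rat 1 alone. Mug1, which was not tested either, was well above background on its brighter probes in 2 rats of each group. The part of liver-type transcripts in the Fgg and Fgb values of NDMA rat 1 was not tested. Nor was their part in the Fga, Fgb and A2m values of NDMA rat 2. These plasma protein genes were picked from the hepatocyte and acute-phase lists after their values were seen.

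**Figure D2:**
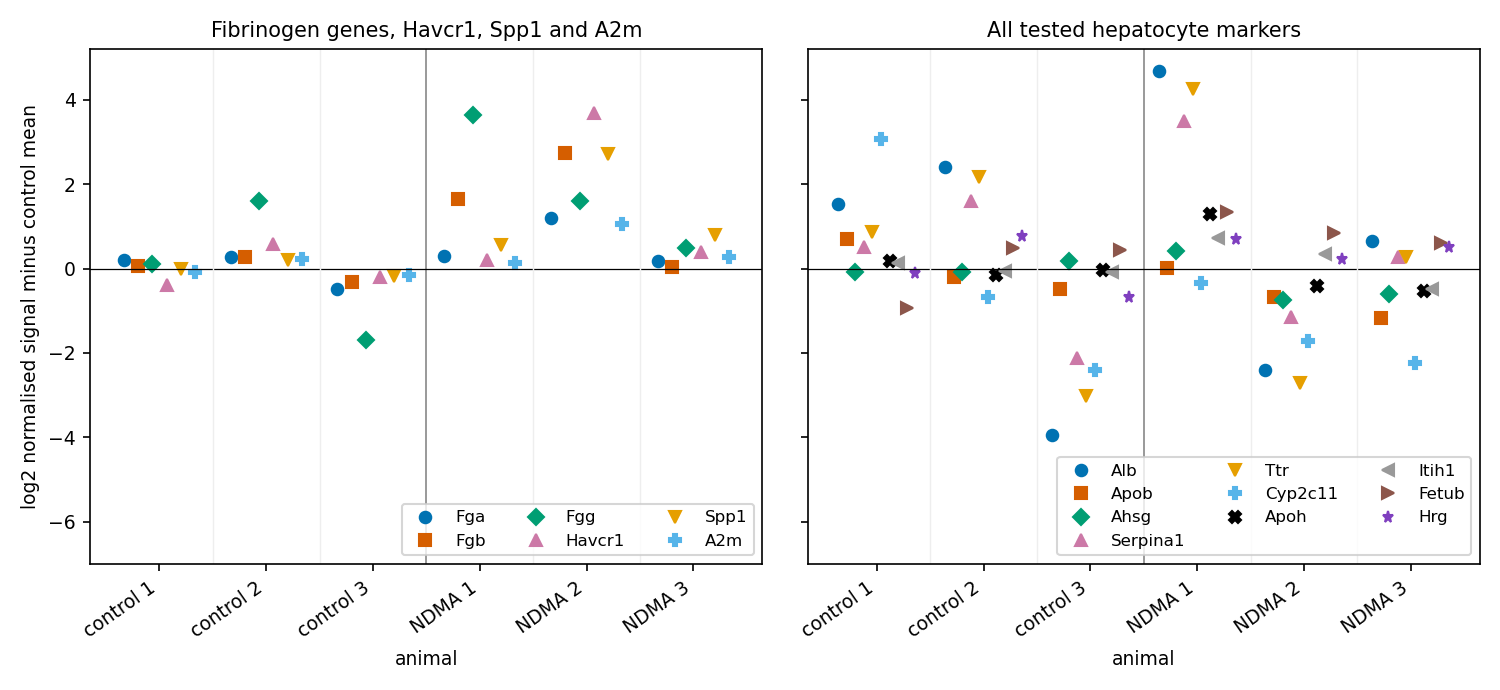
Log2 normalised signal minus the control mean in each of the 6 rats, by brightest tested probe: fibrinogen genes, Havcr1, Spp1 and A2m at left, and all 10 tested hepatocyte markers at right, 1 point per gene and rat. At right 9 of 10 points lie above 0 in NDMA rat 1, with Alb at 4.68, and 3 of 10 in NDMA rat 2, with Alb at -2.41, where Fgb at left reaches 2.75.

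Leaving out 1 rat at a time showed how much of each difference rested on NDMA rat 2. Without this rat, the difference of Havcr1 went from 1.42 to 0.29, Spp1 from 1.36 to 0.67, Lcn2 from 0.75 to 0.35, Fga from 0.56 to 0.24, A2m from 0.49 to 0.21 and the first Fgb probe from 1.47 to 0.84. Timp1 moved only from 0.78 to 0.72 and kept its call (limma adjusted p = 0.0387). Both Fgg differences were smallest without NDMA rat 1. Among the controls, the first Fgg probe was lowest in control rat 1 (0.82 without it) and the second in control rat 3 (1.06 without it). Slide 2 held no control, so with slide as a block each difference is that of NDMA rat 1 from the control mean. It was 0.20 for Havcr1, 0.56 for Spp1, and 1.65 and 1.73 for Fgb, the same as on slide 1 alone. With this block none of the 14 probes passed, 3 of them with an unadjusted limma p under 0.05.

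**Figure D3:**
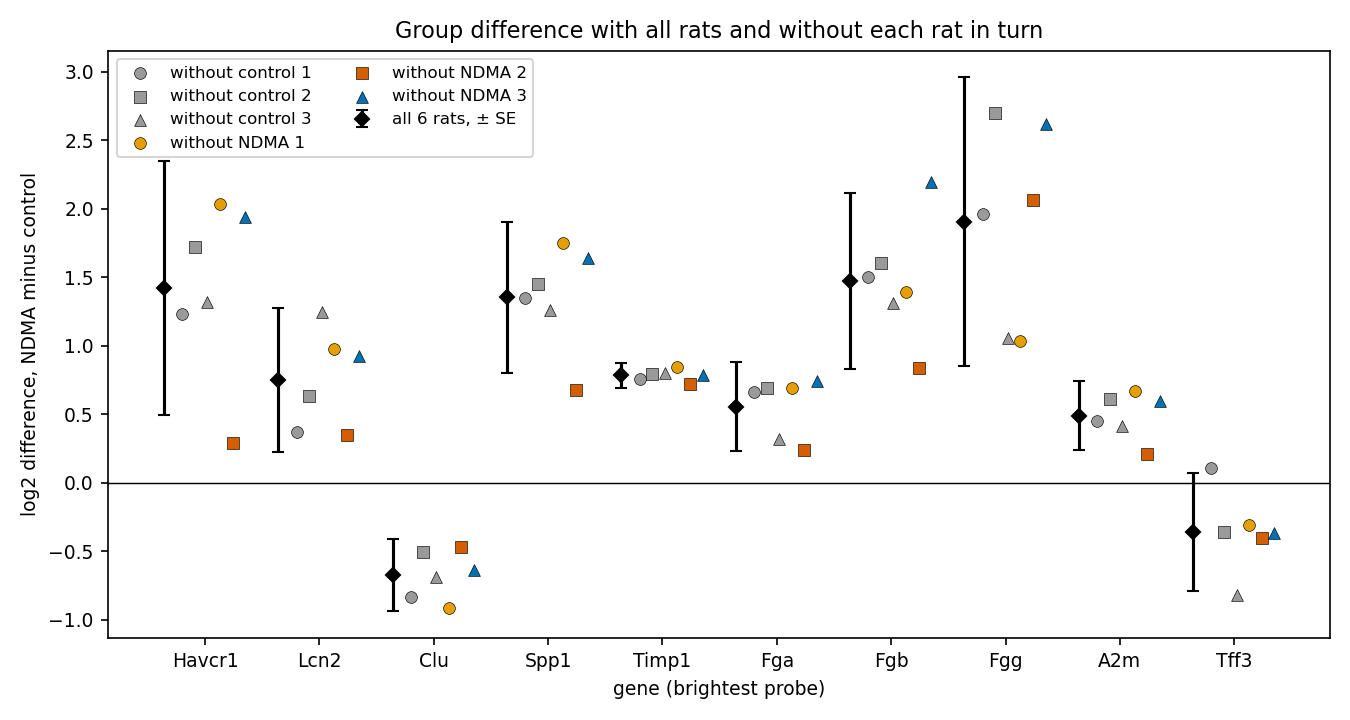
Group difference (log2, NDMA minus control) of each gene's brightest tested probe; the diamond is the fit on all 6 rats with its moderated SE, and each other symbol is the fit without the rat named in the legend. The orange-red square, without NDMA rat 2, is the lowest of the leave-out points for Havcr1, Lcn2, Spp1, Fga, Fgb and A2m, while the Timp1 points span only 0.72 to 0.85.

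Among receptors and partners of the members, 5 genes rose and 1 fell. Of 43 listed genes 33 were tested, with a median difference of 0.07; over all genes tested by their brightest probe the median was -0.04, with 3.56% called higher and 0.485% called lower. Lrp2 (megalin), the endocytic receptor that takes up filtered NGAL and clusterin, read 6.41, 6.50 and 6.44 in controls and 6.01, 5.71 and 5.93 in NDMA. All 3 NDMA rats lay below all controls, and the fall of -0.57 ± 0.10 passed (limma adjusted p = 0.0439). The groups did not overlap for 18 of the 33, 11 higher and 7 lower in NDMA, and for 29.3% of all genes tested. The other settings given below cover the members and the counts over all probes, not Lrp2 or other genes of the lists. Slc22a17, the other NGAL receptor, was at -0.33 ± 0.09 (adjusted p = 0.153), and Lrp1, the receptor of A2m-protease complexes, at -0.09 (adjusted p = 0.770). Trem2, a myeloid receptor that binds clusterin, rose by 1.83 ± 0.14 (adjusted p = 0.00596).

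Partners of osteopontin, of fibrinogen and of Timp1 behaved as follows. Cd44, a receptor of osteopontin that is counted with the injury biomarkers below, read -1.64, -1.42 and -1.64 in controls and -0.30, 0.33 and -0.06 in NDMA. The groups were well apart, with a rise of 1.56 ± 0.17 (limma adjusted p = 0.0107). The integrin genes Itga4, whose product binds osteopontin, and Itgb2, part of the leukocyte receptor of fibrinogen, rose by 1.19 (adjusted p = 0.0116) and 1.17 (adjusted p = 0.0284). Fgl2, a fibrinogen-like protein of immune cells, rose by 0.77 (adjusted p = 0.0198). These integrins are leukocyte genes, and the macrophage and T cell markers given above were higher in the same rats; their part in these values was not tested. Mmp2, a gelatinase, read 1.14, 1.38 and 1.31 in controls and 2.25, 3.30 and 2.81 in NDMA and rose by 1.51 ± 0.26 (adjusted p = 0.0365). Mmp9, a gelatinase that Timp1 inhibits, was at 0.02 (adjusted p = 0.986) and Cd63, a cell-surface partner of Timp1, at -0.15 (adjusted p = 0.401). Itgb3 was not tested, and Timd4 and Itgav had no probe matched by name.

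Of the IL-6 and STAT3 genes, 2 of 24 tested (28 listed) rose and 0 fell, with a median of 0.25. Among all genes tested, 3.56% were called higher and 0.485% lower. Il6r, the receptor's binding chain, read -2.66, -2.78 and -2.75 in controls and -1.98, -1.69 and -2.01 in NDMA, a rise of 0.84 ± 0.11 (limma adjusted p = 0.0170). The groups did not overlap for Il6r, as for 10 of the 24 and for 29.3% of all genes tested. Stat3 was at 0.40 ± 0.09 (adjusted p = 0.0765), Il6st, the shared signalling chain, at 0.21 (adjusted p = 0.364) and Socs3, a feedback inhibitor that STAT3 induces, at -0.04 (adjusted p = 0.838). Il6 itself was not well above background in any rat.

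Several other injury biomarkers were higher in all 3 NDMA rats. Of 28 tested (30 listed), 6 rose and 0 fell, with a median of 0.31, where 3.56% of all genes were called higher and 0.485% lower. Gpnmb, a glycoprotein of macrophages and injured tubules, was 2.14, 2.69 and 3.02 above the control mean in NDMA rats 1, 2 and 3, a rise of 2.62 ± 0.22 (limma adjusted p = 0.00679). Il18, a cytokine released by injured tubule cells, rose by 0.92 ± 0.11 (adjusted p = 0.0125), and B2m, the light chain of MHC class I, by 0.61 ± 0.09 (adjusted p = 0.0280). Cd44, given above, is on this list. For Gpnmb, Il18, B2m and Cd44 all 3 NDMA rats lay above all controls. These genes were picked by their small adjusted p, so this separation adds no support. The groups did not overlap for 12 of the 28, and for 29.3% of all genes tested.

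Of the other positive acute-phase proteins 4 of 26 tested (30 listed) rose and 0 fell, with a median of 0.88. Among all genes tested, 3.56% were called higher and 0.485% lower. Ptx3, a pentraxin made locally by myeloid and stromal cells, read -4.99, -4.78 and -5.02 in controls and -2.84, -2.10 and -2.30 in NDMA, a rise of 2.52 ± 0.20 (limma adjusted p = 0.00596). C4a, a complement component, rose by 1.20 ± 0.18 (adjusted p = 0.0239), Il1rn, the IL-1 receptor antagonist, by 1.22 ± 0.19 (adjusted p = 0.0278) and Cfb, complement factor B, by 0.94 ± 0.16 (adjusted p = 0.0381). In these 4 genes, picked by their small adjusted p, each NDMA rat was above each control, which adds no support. The groups did not overlap for 13 of the 26, 11 higher and 2 lower in NDMA, and for 29.3% of all genes tested. Of the 26, 9 were highest in NDMA rat 1, against 4604 of 43100 tested probes, and 6 in NDMA rat 2, a share near the 20.1% of all tested probes.

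The negative acute-phase proteins, which the liver makes less of during inflammation, gave no call in either direction. All 11 listed genes were tested, 0 passed by limma (2 before adjustment), and the median difference was 0.79. Of the 11, 9 were highest in NDMA rat 1, against 4604 of 43100 tested probes; Alb and Ttr are on this list. The positive and the negative lists therefore had medians of the same sign. Control rat 3 was the lowest rat on 16 of the 26 positive and on 5 of the 11 negative genes. Averaged over the negative list, the distance from the control mean was 1.74, -0.52 and 0.14 in NDMA rats 1, 2 and 3. Over the positive list it was 1.22, 0.42 and 0.59.

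**Figure D4:**
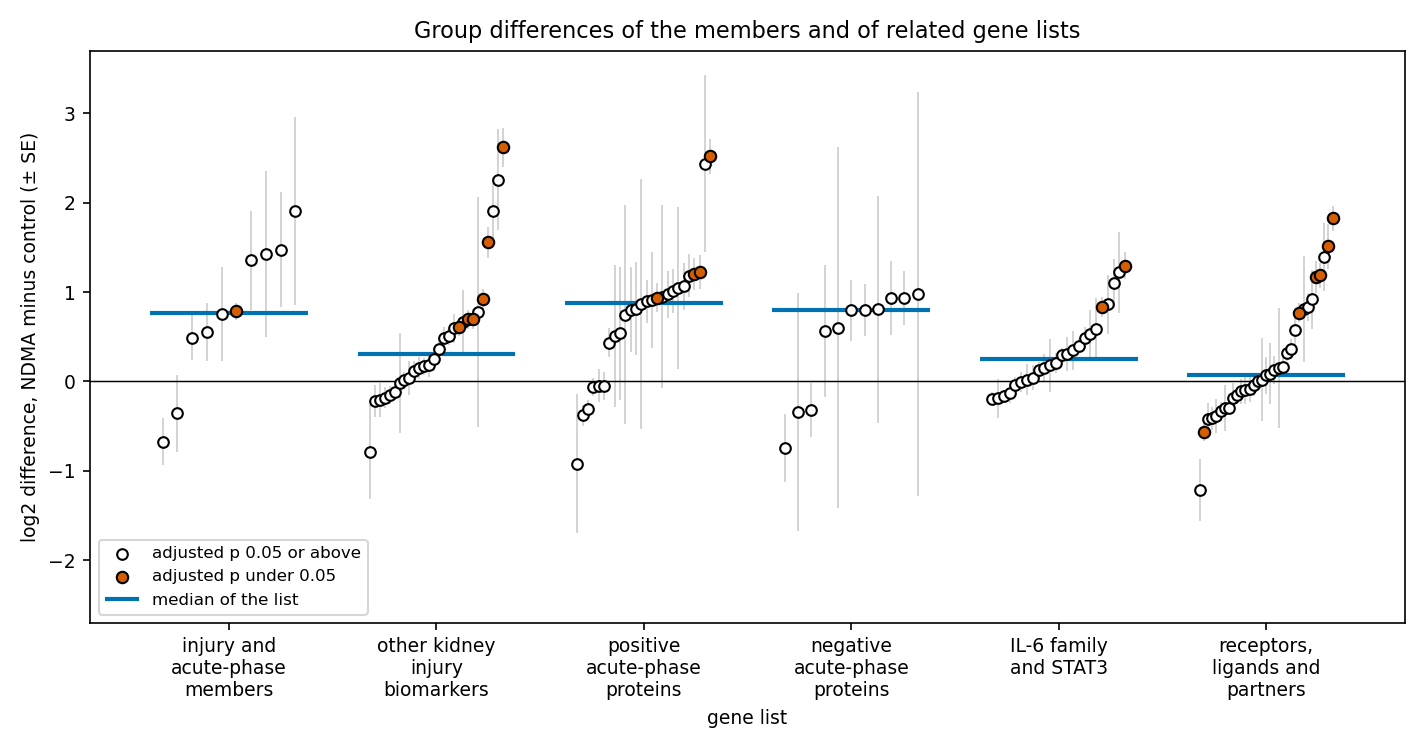
Log2 difference (NDMA minus control, ± moderated SE) of the 10 members and of 5 related gene lists, 1 point per gene by its brightest tested probe, filled where the adjusted p was under 0.05, with each list's median as a line. The medians are 0.77 for the members, 0.31, 0.88, 0.79, 0.25 and 0.07 for the lists from left to right, and the long error bars mark genes that varied between rats, such as Fgg and the negative acute-phase proteins.

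The genes most like Havcr1, Fgb and Spp1 were sought among 2921 tested probes with a RefSeq name and a range of at least 1 log2 unit, by Pearson's r over the 6 arrays. These correlations describe which probes share a high rat and have no test. For Havcr1 they were Ly49s7 (r = 0.985), Kcne5 (0.984), Lhx6 (0.969) and Cfi (0.967). Cfi, complement factor I, read 0.48, 0.40 and 0.31 in controls and 0.43, 1.84 and 0.61 in NDMA, with NDMA rat 2 high as for Havcr1. The other 3 were dim probes.

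For Spp1 the most similar were Fam111a (r = 0.995), Kif20b (0.992), Akr1b8 (0.990) and Acsm3 (0.974). Akr1b8, an aldo-keto reductase, read -0.13, -0.17 and -0.40 in controls and 0.84, 3.17 and 0.70 in NDMA, so that all NDMA rats were above the controls and NDMA rat 2 far above. For Fgb they were Slc51a (r = 0.998), Akr1c12 (0.986), Spetex2d (0.986) and Gimd1 (0.980). Slc51a, a chain of the basolateral bile acid and steroid transporter, read 2.35, 2.42 and 2.08 in controls and 3.46, 4.04 and 2.27 in NDMA. As with Fgb, NDMA rats 1 and 2 lay above all controls and NDMA rat 3 among them. None of these 12 genes passed the test, with limma adjusted p from 0.209 to 0.540.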

How the data were processed

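Cy3-labelled cRNA from the renal cortex of 6 rats was measured on 1-colour Agilent arrays. Groups came from sample titles and treatment labels; the series' design text calls the replicates biological. The authors used Agilent Feature Extraction (10.7 in the submitters' processing notes, 10.7.1.1 in the file headers). The deposited intensity of a spot is background-subtracted and spatially detrended within its array and was not scaled across arrays, per the file headers. The authors' deposited value table is a linear ratio, found to be that intensity over the array's 75th percentile; it served as an alternative. Other deposited columns, per the file headers, are flags for spots well above background, saturated or outlying.

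Intensities of 61657 non-control probes were taken to log2 minus each array's 75th percentile (993 to 1053 on slide 1, 1299 and 1310 on slide 2), with outlier spots missing. Probes well above background in all 3 rats of a group (43118) entered a two-sided test by lmFit and eBayes of limma 3.58.1 (R 4.3.3), where the residual degrees of freedom were 4 and the prior ones 2.40. P-values were adjusted by Benjamini-Hochberg over all tested probes, at a threshold of 0.05. Values are NDMA minus control with the moderated SE; SDs are over 3 rats. No exact permutation of 3 against 3 rats can reach that threshold, so none is given, and the number of arrays limits the precision. A fold given as at least a value sets the brighter mean against the dim group's mean, each dim array at the higher of its own value and the lowest value well above background. A summed level adds, over a list's tested genes, the signal over the 75th percentile. The fit was tested on simulated arrays.

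Probes were named by accession from RefSeq's GRCr8 table (27460 probes). The array's annotation is on rn4, so RefSeq promoter coordinates are the only ones given. RefSeq's 300-base windows were cut to the 250 bases before the start. Genes named are all members, up to 4 called genes per list by smallest adjusted p, the 4 genes most correlated with each of Havcr1, Fgb and Spp1, and a fixed set of receptors and ligands; others are markers named as undetected or genes said to be chosen after their values were seen. The values of 1 called list gene are not reported here. The members, lists and rule were chosen with earlier results of these data known. Alternatives were normexp (offset 50, on the median signal, chosen after seeing that no mean signal was in the files), median and quantile scaling, the authors' table, 2 other filters, trended variance, array weights, slide, replicate block, 1 probe per gene and leaving out each rat.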

Additional observations from a re-analysis of the deposited data

How the results depend on the processing

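Of 247 comparisons of a member probe with an alternative, 242 kept direction or lack of a call as reported and 5, all for Timp1, lost the call. Because 13 of the 14 probes had no call to lose, this count says little. Timp1 kept its call in 13 of 18 alternatives. The uncalled Tff3 difference changed sign without control rat 1. The count of member probes past the threshold was 1, and it became 0 with slide as a fixed block (3 with an unadjusted p under 0.05), 0 on slide 1 alone (5) and 0 with the replicate block (6), and ranged from 0 to 1 when 1 rat was left out. Over all probes the limma count of 1289 became 488 with no filter on background, 82 with slide as a block, 0 on slide 1 alone (4667 with an unadjusted p under 0.05) and 511 with the replicate block, and ranged from 464 to 987 when 1 rat was left out. Leaving out a rat moved it most without control rat 1 (464) and NDMA rat 3 (500). Normexp called 943 probes higher and 516 lower, against 1080 and 209, and Timp1 kept its call there. Over all tested probes, same-numbered rats did not deviate together (correlations 0.03, -0.05 and 0.01). This cannot exclude a pairing for single genes. With the replicate block the SE of Havcr1 went from 0.93 to 0.58 and that of Fga from 0.32 to 0.19. The SE of the first Clu probe went from 0.26 to 0.32. Whether the numbers pair the animals was not tested. Slide 1 held 1 NDMA rat, which is assumed to vary like the controls. Signal over background limits Fgg, Havcr1 and A2m, the dim members. Normexp on the mean signal was not run.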
